A study of Homo sapiens with 4 samples.

Results

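The genes described here are the claudins, cadherins and desmosome genes, with the scaffolds and catenins that join them to the cytoskeleton. They were chosen by gene symbol, as CLDN and CDH genes with a number, the zonula occludens (TJP) genes, desmocollins and desmogleins, plakophilins, and OCLN, F11R, CGN, CRB3, DSP, JUP, EPCAM, MARVELD2, CTNNA1 and CTNND1. Of 16658 genes in the expression table, 58 met this rule, of which 24 were tested because at least 2 libraries held an FPKM of 1 or more. A further 13 matching symbols in RefSeq were not analysed here. RNA-seq was performed on WT cells, labelled HepG2 with a wildtype genotype, and on ZCCHC4 KO1 cells. The latter were a single line, also labelled HepG2, with CRISPR/Cas9 knockout of ZCCHC4. Both were untreated and grown in DMEM with serum. Each group had 2 libraries, and nothing in the labels says whether these came from separate cultures, so p-values measure the spread between these libraries only. With 1 knockout line, the loss of ZCCHC4 and other properties of that line cannot be told apart.

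Epithelial cells are held together by several kinds of junction. In tight junctions, claudins and occludin of neighbouring cells seal the space between them and are tied to actin by the zonula occludens proteins. In adherens junctions, cadherins bind each other across the gap and hold catenins at their inner tails. In desmosomes, desmogleins and desmocollins are linked through plakoglobin, plakophilins and desmoplakin to keratin filaments. In carcinomas, a shift from E-cadherin (CDH1) to N-cadherin (CDH2) is widely used as a sign of epithelial-mesenchymal transition.

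FPKM is a fragment number scaled by the length of the transcript and the size of the library, so that levels of different genes can be set side by side. The depth of the libraries is unknown, since FPKM values carry no read totals. ZCCHC4 itself was at 7.22 and 5.44 in WT, with 1.08 and 2.29 measured in ZCCHC4 KO1 (limma, Benjamini-Hochberg adjusted p = 0.0448), and its call was lost without ZCCHC4 KO1 replicate 1 (0.0514). Hepatocyte genes were nearly absent from the cells labelled HepG2. Of 14 defining hepatocyte genes, 9 were listed and none of these 9 exceeded an FPKM of 0.12 in any library, HNF4A, AFP and SERPINA1 among them, and the other 5 were not analysed here. The keratin genes KRT7, KRT8 and KRT18 lay between 1294.42 and 3601.92 FPKM in all 4 libraries, while the endothelial markers summed to at most 0.74 FPKM. KRT19, also on the simple epithelial list, did not exceed 0.11 FPKM. Of the leukocyte markers, CD68 lay between 11.71 and 16.74 FPKM and PTPRC did not exceed 0.12. The simple epithelial markers, mostly these keratins, summed to 5243.51 and 6095.06 in WT, compared with 9259.96 and 7068.92 in ZCCHC4 KO1. KRT8 and KRT18 were above both WT libraries in both ZCCHC4 KO1 libraries, with adjusted p values from limma of 0.176 and 0.135. KRT7 overlapped between the groups, at 2025.95 and 2359.14 in WT versus 3077.59 and 2351.80 in ZCCHC4 KO1 (adjusted p = 0.492 from limma). The mesenchymal markers, mostly VIM, summed to 545.53 and 562.57 in WT, compared with 392.50 and 416.67 in ZCCHC4 KO1. One of them, the collagen gene COL1A1, was called lower (log2 fold change -1.26, adjusted p = 0.0235 from limma). FN1 and COL1A2, from the same list, did not exceed 0.11 FPKM. The part of these differences in the results below was not tested. In bulk RNA, fewer cells that express a gene and less RNA per cell cannot be told apart.

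Expression was concentrated in a few members. The most abundant were JUP, which encodes plakoglobin, at 142 to 184 FPKM, and CTNNA1, which encodes alpha-catenin and links cadherin complexes to actin, at 97.3 to 138 FPKM. PKP3, CDH2, CTNND1, PKP4, DSG2 and DSP followed, each with a mean between 15.3 and 40.5 FPKM over the 4 libraries. At the other end, CDH1 did not exceed 0.60 FPKM in any library, and EPCAM, an epithelial adhesion molecule, was listed at 0 in 3 libraries and at 0.03 in WT replicate 2. Among the 34 members that were not tested, 26 stayed below 0.2 FPKM in every library.

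**Figure D1:**
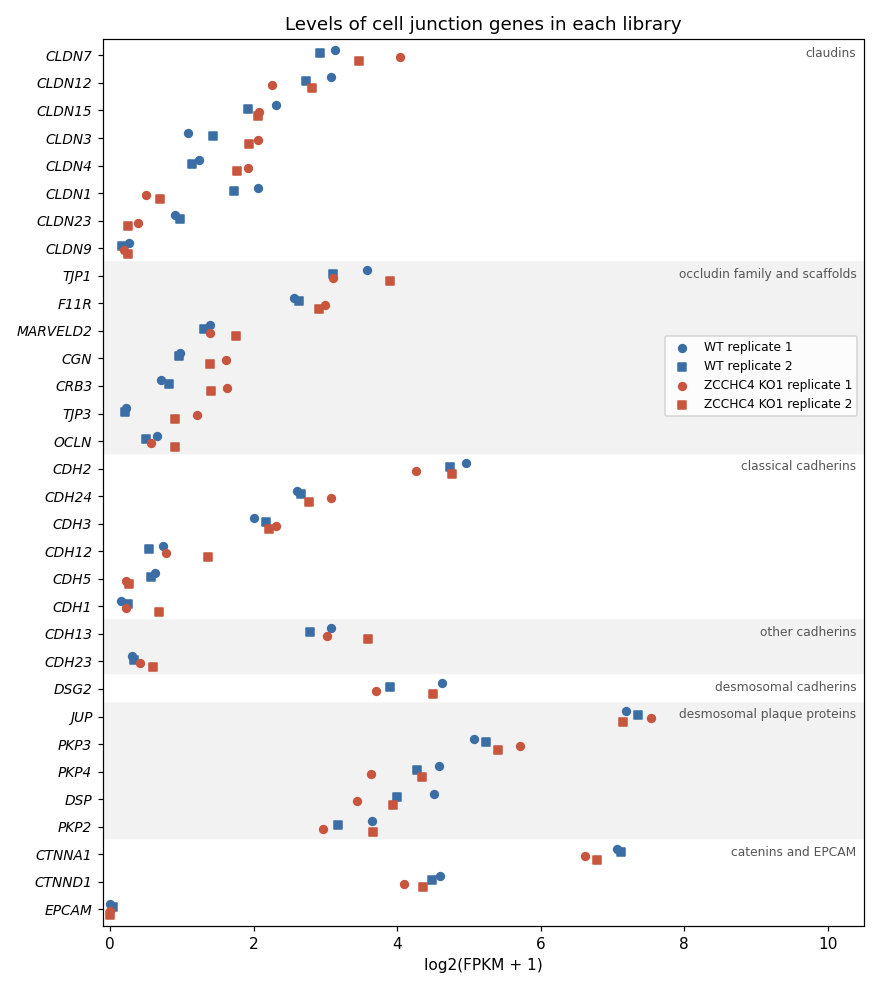
FPKM of cell junction genes that reached 0.2 FPKM in any library, with EPCAM added and 1 gene left out, on a log2(FPKM + 1) axis. Each point is 1 library, blue for WT and red for ZCCHC4 KO1, circles for replicate 1 and squares for replicate 2. JUP and CTNNA1 lie farthest to the right, CDH1 and EPCAM near 0, and CLDN1 shows a wide gap between the groups.

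Of the 18 listed claudins, 6 were tested and 1 was called. CLDN1, which encodes a sealing claudin of epithelia, fell in ZCCHC4 KO1 cells. Its FPKM was 3.16 and 2.32 in WT but 0.41 and 0.62 in ZCCHC4 KO1. Both ZCCHC4 KO1 libraries were thus below both WT libraries, and the mean was 5.32-fold lower in FPKM. On the log2(FPKM + 1) scale, which is used for every log2 fold change below and understates the change of low genes, CLDN1 differed by -1.30 (standard error 0.203, adjusted p = 0.0260 from limma). CLDN1 was the only member of the 24 tested that passed an adjusted p of 0.05. It was below 1 FPKM in both ZCCHC4 KO1 libraries, so it met the filter through WT only. Over all 10726 tested genes, 4.48 percent were called lower and 1.5 percent higher at that threshold. Under a stricter criterion, which asks for a 2-fold difference and an adjusted p under 0.001 from limma, 0 of the 24 members and 0.0746 percent of all tested genes were called. At an unadjusted p under 0.05, limma had 5 members higher and 2 lower, beside 8.96 and 13.9 percent of all tested genes. Without the filter on low values, the adjusted p of CLDN1 was 0.0628, and a minimum FPKM of 5 removed the gene.

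CLDN3, CLDN4 and CLDN7 lay the other way. CLDN7, the most abundant claudin here, was at 7.75 and 6.59 FPKM in WT versus 15.51 and 10.03 in ZCCHC4 KO1. CLDN3 was at 1.12 and 1.71 in WT, with 3.19 and 2.84 measured in ZCCHC4 KO1. CLDN4 was at 1.36 and 1.20 in WT, compared with 2.79 and 2.39 in ZCCHC4 KO1. For all 3 genes, both ZCCHC4 KO1 libraries were above both WT libraries. The log2 fold changes were 0.73 for CLDN7 (standard error 0.249, adjusted p = 0.157 from limma), 0.74 for CLDN3 (standard error 0.209, adjusted p = 0.104) and 0.65 for CLDN4 (standard error 0.184, adjusted p = 0.104). None of them passed in the fit as described, whereas with median-ratio scaling all 3 passed, with adjusted p values from limma of 0.0306 for CLDN7, 0.0153 for CLDN3 and 0.0309 for CLDN4. That scaling raised the calls over all 10726 tested genes from 641 to 1177. CLDN3 and CLDN4, both receptors for Clostridium perfringens enterotoxin, are neighbours on chromosome 7 of GRCh38, from 73768997 to 73770270 and from 73830996 to 73832690.

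The other claudins showed smaller or less certain differences. CLDN12, which lacks the tail motif by which most claudins bind zonula occludens proteins, was at 7.43 and 5.64 FPKM in WT versus 3.79 and 6.01 in ZCCHC4 KO1, so that the groups overlapped (log2 fold change -0.37, standard error 0.265, adjusted p = 0.479 from limma). CLDN15, a cation-pore claudin of the intestine, was at 3.97 and 2.80 in WT, with 3.22 and 3.17 measured in ZCCHC4 KO1 (log2 fold change -0.05, standard error 0.216, adjusted p = 0.92 from limma). CLDN23 was at 0.88 and 0.97 in WT, compared with 0.31 and 0.19 in ZCCHC4 KO1, below the filter, and in the fit without a filter its adjusted p was 0.0559 from limma. The other 11 listed claudins stayed at or below 0.20 FPKM in every library. Summed over all 18 listed claudins, FPKM was 24.2 ± 3.29 in WT and 27.8 ± 2.69 in ZCCHC4 KO1 (SD, n = 2 each), a difference of about the spread between libraries.

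Within that sum the make-up differed. CLDN1 held 11.9 and 10.6 percent of the summed claudin FPKM in WT but 1.38 and 2.40 percent in ZCCHC4 KO1. CLDN7 held 29.2 and 30.1 percent in WT but 52.3 and 38.8 percent in ZCCHC4 KO1. The share of CLDN7 thus differed more between the ZCCHC4 KO1 libraries than between the WT libraries. CLDN3 held 4.22 and 7.82 percent and CLDN4 5.13 and 5.49 percent in WT, against shares of 10.76 and 10.98 percent for CLDN3 and of 9.41 and 9.24 percent for CLDN4 in ZCCHC4 KO1. These shares describe the libraries, and no test was made of them.

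Among the other tight junction genes, CRB3, CGN, TJP3 and F11R had higher values in both ZCCHC4 KO1 libraries than in both WT libraries, and none was called in the fit as described. CRB3 and CGN were below 1 FPKM in both WT libraries and passed the filter through ZCCHC4 KO1 only. CRB3, a Crumbs protein that sets the apical domain, was at 0.64 and 0.76 FPKM in WT versus 2.08 and 1.64 in ZCCHC4 KO1, 2.66-fold higher in mean FPKM (log2 fold change 0.75, standard error 0.182, adjusted p = 0.0769 from limma). CRB3 passed under median-ratio scaling (adjusted p = 0.00943 from limma), under quantile normalization (0.0365) and after removal of the GC trend (0.0407). These settings also raised the calls over all tested genes, from 641 to 1177, 1187 and 2097 in that order. CRB3 did not pass with no filter (0.102), a pseudocount of 0.1 (0.0732), eBayes with no trend (0.0710) or a replicate block (0.312). Leaving out 1 library at a time moved its log2 fold change between 0.64 and 0.86. CGN, which encodes cingulin, was at 0.96 and 0.95 in WT, with 2.05 and 1.62 measured in ZCCHC4 KO1 (log2 fold change 0.53, adjusted p = 0.156 from limma). TJP3, encoding ZO-3, was at 0.17 and 0.16 in WT, compared with 1.31 and 0.88 in ZCCHC4 KO1. It missed the filter, and its adjusted p was 0.0630 from limma without one. F11R, which encodes the junctional adhesion molecule JAM-A, was at 4.93 and 5.18 in WT versus 6.96 and 6.54 in ZCCHC4 KO1 (log2 fold change 0.36, standard error 0.185, adjusted p = 0.323 from limma).

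TJP1, OCLN and MARVELD2 did not separate the groups. TJP1, encoding ZO-1, was at 10.99 and 7.59 FPKM in WT, with 7.63 and 13.90 measured in ZCCHC4 KO1 (log2 fold change 0.16, standard error 0.320, adjusted p = 0.819 from limma). Its libraries within each group differed from each other more than the group means did. OCLN, which encodes occludin, was at 0.57 and 0.41 in WT versus 0.48 and 0.87 in ZCCHC4 KO1. MARVELD2, which encodes tricellulin at three-cell contacts, differed by 0.22 on the log2 scale (standard error 0.207, adjusted p = 0.592 from limma).

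Cadherin expression was mostly that of CDH2. It held 75.6 and 71.3 percent of the summed FPKM of the 14 listed classical cadherins in WT but 58.9 and 68.6 percent in ZCCHC4 KO1, while CDH1 held at most 1.57 percent. CDH2 was at 30.04 and 25.57 FPKM in WT, with 18.26 and 26.26 measured in ZCCHC4 KO1, with overlapping groups (log2 fold change -0.33, standard error 0.213, adjusted p = 0.436 from limma). CDH1 was at 0.11 and 0.19 in WT, compared with 0.17 and 0.60 in ZCCHC4 KO1. In each library CDH2 was thus far above CDH1, and neither gene differed between the groups beyond its spread. CDH24, a type II cadherin, was at 5.08 and 5.32 in WT versus 7.41 and 5.80 in ZCCHC4 KO1, and CDH3, or P-cadherin, was at 3.01 and 3.50 in WT, with 3.97 and 3.63 measured in ZCCHC4 KO1. Their adjusted p values were 0.476 and 0.655 from limma. CDH13, or T-cadherin, which is held by a lipid anchor and has no cytoplasmic tail, was at 7.46 and 5.89 in WT, compared with 7.12 and 11.07 in ZCCHC4 KO1 (adjusted p = 0.463 from limma). CDH5, the endothelial cadherin, was at 0.55 and 0.48 in WT versus 0.17 and 0.20 in ZCCHC4 KO1, below the filter (adjusted p = 0.0649 from limma without one). CDH12, another type II cadherin, was highest in ZCCHC4 KO1 replicate 2, at 1.58, and lay between 0.46 and 0.71 in the other libraries.

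The catenin genes CTNNA1, CTNND1 and CTNNB1 were lower in both ZCCHC4 KO1 libraries than in both WT libraries, as were 28.5 percent of all tested genes. The transcript GC content of these 3 genes lay between 46.15 and 47.01 percent. JUP and the partner gene ARVCF, which are relatives of the catenins, overlapped between the groups. CTNNA1 was at 133.16 and 137.91 FPKM in WT, with 97.26 and 109.83 measured in ZCCHC4 KO1 (log2 fold change -0.39, standard error 0.131, adjusted p = 0.153 from limma). With the GC trend removed the adjusted p of CTNNA1 was 0.0499 from limma, in a fit that called 19.9 percent of all tested genes. CTNND1, encoding p120-catenin, which keeps cadherins at the membrane, was at 23.15 and 21.51 in WT, compared with 16.13 and 19.48 in ZCCHC4 KO1 (log2 fold change -0.32, standard error 0.166, adjusted p = 0.328 from limma). CTNNB1, encoding beta-catenin and taken from the list of junction partners, was at 76.13 and 76.57 in WT versus 41.00 and 60.54 in ZCCHC4 KO1 (log2 fold change -0.61, standard error 0.203, adjusted p = 0.152 from limma). None of the 3 passed in the fit as described. The log2 fold change of CTNNB1 was -0.88 without ZCCHC4 KO1 replicate 2 and -0.33 without ZCCHC4 KO1 replicate 1.

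Desmosome genes were expressed unevenly. Of the 5 listed desmosomal cadherins, DSG2 alone was above 0.1 FPKM, at 23.58 and 13.93 in WT, with 12.07 and 21.71 measured in ZCCHC4 KO1 (log2 fold change -0.15, standard error 0.349, adjusted p = 0.845 from limma). DSC1, DSC2, DSC3 and DSG3 did not exceed 0.09 FPKM in any library. In the plaque, JUP was at 145.18 and 162.95 in WT, compared with 184.09 and 141.50 in ZCCHC4 KO1, so that its groups overlapped (log2 fold change 0.07, standard error 0.171, adjusted p = 0.857 from limma). PKP3, a plakophilin of simple and stratified epithelia, was at 32.76 and 36.70 in WT versus 51.31 and 41.27 in ZCCHC4 KO1 (log2 fold change 0.40, standard error 0.163, adjusted p = 0.224 from limma). DSP, the plakin that anchors keratin filaments, was at 21.89 and 14.99 in WT, with 9.90 and 14.34 measured in ZCCHC4 KO1 (log2 fold change -0.57, standard error 0.261, adjusted p = 0.273 from limma). PKP3 was thus higher and DSP lower in both ZCCHC4 KO1 libraries, and neither passed. PKP4 was at 22.98 and 18.40 in WT versus 11.47 and 19.34 in ZCCHC4 KO1 (log2 fold change -0.44, standard error 0.271, adjusted p = 0.408 from limma). Like PKP2, PKP4 overlapped between the groups, while PKP1 stayed at or below 0.04 FPKM.

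Over the 24 tested members, 13 had a log2 fold change above 0 and 11 below 0, with a median of 0.11 beside -0.03 over all tested genes. The groups did not overlap for 9 members with ZCCHC4 KO1 above WT and for 4 with ZCCHC4 KO1 below WT, that is 37.5 and 16.7 percent of 24, beside 23.1 and 28.5 percent of all tested genes. The 9 were CRB3, CLDN3, CLDN4, CLDN7, CGN, PKP3, F11R, CDH24 and CDH3, and the 4 were CLDN1, CTNNA1, CTNND1 and DSP. The filter keeps genes that are high in either group, so these counts describe the tested members and not all 58. CRB3 and CGN passed it through ZCCHC4 KO1 only, and CLDN1 through WT only. Several values hung on single libraries. Leaving out 1 library at a time moved the log2 fold change of CLDN7 between 0.44 and 1.02, of DSP between -0.82 and -0.31, of CDH2 between -0.58 and -0.08, of CLDN12 between -0.64 and -0.09 and of CDH13 between 0.09 and 0.66.

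Differences between libraries of the same group followed the GC content of the transcripts. Across the 24 members, whose median transcript GC content ran from 39.7 to 70.0 percent, the Spearman correlation with the difference of replicate 2 minus replicate 1 reached 0.68 for WT libraries and -0.81 for ZCCHC4 KO1 libraries. Over all tested genes with a known GC content it was much the same, at 0.71 and -0.78, so it was not particular to the members. The points share 2 libraries each, and these values are a description. In 19 of the 24 members the replicate differences of the groups had opposite signs, as for DSG2 (40.3 percent GC), which was lower in replicate 2 of WT and higher in replicate 2 of ZCCHC4 KO1. That share was not counted over all tested genes, where the replicate differences of the groups correlated with Pearson's r = -0.79. The fold change moved with GC content too, with a Spearman correlation of 0.65 over the 24 members and 0.19 over all tested genes. Of the 11 members with a GC content below 50 percent, 8 had a log2 fold change below 0 and the median was -0.32. Of the 13 members at 50 percent or more, 10 were above 0 and the median was 0.36. The medians over all tested genes on these sides were -0.10 and 0.06. With the GC trend removed from each library, the log2 fold changes were 0.63 for CLDN7, 0.55 for CLDN3, 0.58 for CLDN4 and 0.62 for CRB3, and CLDN1 remained called at an adjusted p below 0.05. PKP3 went from 0.40 to 0.20 and CDH24 from 0.29 to 0.13.

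Other genes of the junction, taken from a written list of 57 partners, were compared in the same fit. This list too was chosen with earlier results of these data known. Of these, 55 were listed, 40 were tested and 3 were called higher and 1 lower at an adjusted p below 0.05, that is 10.0 percent beside 5.98 percent of all tested genes. PERP, a desmosomal membrane protein and p53 target, fell from 38.22 and 35.37 FPKM in WT to 10.38 and 13.04 in ZCCHC4 KO1 (log2 fold change -1.58, standard error 0.172, adjusted p = 0.0110 from limma). PPL, which encodes the desmosomal plakin periplakin, rose from 5.83 and 6.56 to 20.44 and 18.40 (log2 fold change 1.51, standard error 0.176, adjusted p = 0.0128 from limma). These desmosome genes moved in opposite directions, each by more than 3-fold in mean FPKM. AJUBA, a LIM protein that binds alpha-catenin, rose from 33.10 and 34.42 to 70.50 and 60.60 (adjusted p = 0.0240 from limma). PRKCZ, an atypical protein kinase C of the polarity complex, rose from 6.59 and 7.09 to 14.52 and 12.71 (adjusted p = 0.0482 from limma). PRKCZ lost its call without either WT library (adjusted p = 0.380 without replicate 1 and 0.270 without replicate 2) and without ZCCHC4 KO1 replicate 1 (0.102), and AJUBA lost its call without either WT library (0.0823 and 0.0532). Besides CTNNB1 and AJUBA, the most abundant partners were SCRIB, a polarity scaffold, and VCL, which encodes vinculin, at log2 fold changes of 0.23 and -0.08, and neither passed.

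Regulators of junction genes were listed as well. Of 28 written, 26 were listed and 17 tested, and 2 were called higher and 2 lower, 23.5 percent of 17 beside 5.98 percent of all tested genes. The list was chosen with earlier results of these data known, so this share is a description. ELF3, an epithelial ETS factor, rose from 19.76 and 21.51 FPKM in WT to 52.86 and 44.90 in ZCCHC4 KO1 (log2 fold change 1.20, adjusted p = 0.0153 from limma). SNAI2, a repressor that binds E-boxes in junction genes, fell from 6.17 and 4.43 to 0.58 and 0.81 (adjusted p = 0.0128 from limma), and FOXC2 fell from 3.05 and 3.04 to a listed 0 in both libraries (adjusted p = 0.00551 from limma). SNAI2 and FOXC2 were below 1 FPKM in both ZCCHC4 KO1 libraries and passed the filter through WT only. With a minimum FPKM of 5, 2 regulators were called, beside 7.13 percent of all tested genes. TWIST1 rose from 6.63 and 6.36 to 12.56 and 13.34 (adjusted p = 0.0446 from limma). The call of TWIST1 was lost without WT replicate 1 (0.310), WT replicate 2 (0.347) or ZCCHC4 KO1 replicate 1 (0.0618). Zinc finger repressors of CDH1 other than SNAI2 stayed uncalled, with SNAI1 at 3.40 and 3.68 in WT, compared with 4.76 and 2.98 in ZCCHC4 KO1. GRHL2, an activator of epithelial junction genes, and OVOL2, a repressor that favours the epithelial state, did not exceed 0.10 FPKM. Besides ELF3, the most abundant tested regulators were TCF3, TFAP2A and KLF5, and none of these 3 passed.

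Promoters are shown for CLDN1, the member that was called, CLDN7, the most abundant claudin, and CRB3, which held the most matches to the E-box CACCTG or its reverse complement CAGGTG, the form bound by SNAI and ZEB repressors. Each is the stretch of 250 bases before a start in RefSeq GRCh38.p14, written 5′ to 3′ along the gene's strand. Capitals mark the 6 letters of each E-box. The stretches are chr3:190322447-190322696 on the minus strand for CLDN1, chr17:7263214-7263463 on the minus strand for CLDN7 (the first of the starts given) and chr19:6464021-6464270 on the plus strand for CRB3. For CRB3 the single start given lies inside the RefSeq gene, which begins at 6463777, so its stretch falls within the gene and not upstream of it.
CLDN1: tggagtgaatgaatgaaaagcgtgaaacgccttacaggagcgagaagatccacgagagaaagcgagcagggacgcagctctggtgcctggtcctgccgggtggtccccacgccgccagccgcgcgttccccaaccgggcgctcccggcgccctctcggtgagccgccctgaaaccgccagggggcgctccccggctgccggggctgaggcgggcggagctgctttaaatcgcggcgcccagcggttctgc
CLDN7: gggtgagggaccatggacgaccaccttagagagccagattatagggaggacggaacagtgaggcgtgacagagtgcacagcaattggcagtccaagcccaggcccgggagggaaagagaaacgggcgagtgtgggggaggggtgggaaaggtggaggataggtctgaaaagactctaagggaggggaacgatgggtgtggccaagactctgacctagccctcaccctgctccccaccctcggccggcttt
CRB3: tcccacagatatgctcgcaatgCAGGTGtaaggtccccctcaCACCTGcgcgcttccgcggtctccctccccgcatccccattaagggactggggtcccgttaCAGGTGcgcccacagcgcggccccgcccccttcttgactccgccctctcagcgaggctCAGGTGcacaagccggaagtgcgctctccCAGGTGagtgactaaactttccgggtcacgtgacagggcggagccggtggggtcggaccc
CRB3 held 5 matches and CLDN1 and CLDN7 held 0. CLDN3 and CLDN4 also held 0. A promoter of this length was at hand for 38 of the 58 members, and 8 of the 38, or 21.1 percent, held a match on either strand, beside 17.5 percent of all 27305 promoters. The other 7 were those of DSG2, DSP, TJP1, OCLN, CDH4, CLDN18 and DSC2. A match describes the letters only.

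The genomic neighbours of the members were followed as well. CLDN1 lies on chromosome 3 of GRCh38 from 190305707 to 190322446, and of the 20 nearest tested genes 12 had a log2 fold change below 0, with a median of -0.13. Around CLDN3, CLDN4 and CLDN7 the 20 nearest genes were split into 10 above and 10 below 0. Some members lay among genes that leaned the same way and others did not. Around PKP4 on chromosome 2, 17 of 20 neighbours were below 0 with a median of -0.53, beside -0.44 for PKP4 itself, which was at -0.08 without ZCCHC4 KO1 replicate 1 and at -0.79 without ZCCHC4 KO1 replicate 2. Around DSP on chromosome 6, 17 of 20 were below 0 with a median of -0.23, and around CRB3 on chromosome 19, 17 of 20 were above 0 with a median of 0.23. CDH13, at a log2 fold change of 0.37, lay among neighbours with a median of -0.21, and CLDN15, at -0.05, had 15 of 20 neighbours above 0. Whether neighbours share in these differences was not tested.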

How the data were processed

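RNA-seq covered 2 WT and 2 ZCCHC4 KO1 libraries. The deposited table holds FPKM values that the authors made with RSEM after Bowtie2 alignment to GRCh38, with each library in its own column and 0 columns left without a sample. The sample labels name an Illumina HiSeq and the supplement the BGISEQ-500. Read filters, gene annotation and versions are not given in the sources used here. The depth is unknown, and precision rests on 2 libraries per group.

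Entrez identifiers were matched to RefSeq (GRCh38.p14), which gave symbols to 16384 of 16658 genes. Genes with an FPKM of at least 1 in at least 2 libraries (10726) were analysed on the log2(FPKM + 1) scale by limma 3.58.1 under R 4.3.3 (lmFit, eBayes with a trend), with Benjamini-Hochberg adjustment over all tested genes. Calls were made at an adjusted p below 0.05, and a stricter criterion added a 2-fold difference and 0.001. GC content, the median over a gene's GENCODE v44 transcripts, was known for 98.4 percent of tested genes and for 24 of 24 tested members. The fit was tested on simulated data with noise drawn separately for each gene, which cannot show its behaviour under library differences shared across genes. Neighbours were the 10 nearest tested genes on each side.

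The members and lists were chosen with earlier results of these data known. The values of 1 tested member, which stays in all counts, are not reported here. Called members are named with all values. Tested members among the 3 most abundant of each family are given with their values in each library, apart from any not reported here. CLDN3, CLDN4, CGN, CRB3, TJP3, CLDN23, CDH5, DSP and others were named after their values were seen. Alternatives tried were no filter, a minimum FPKM of 5, a pseudocount of 0.1, quantile normalization, median-ratio scaling, a replicate block, eBayes with no trend, removal of the GC trend (natural spline, 4 degrees of freedom), leaving out each library and, added after the data were seen, a crossed pairing.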

Additional observations from a re-analysis of the deposited data

How the results depend on the processing

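With 13 alternatives and 35 genes followed, 387 of 445 fold changes kept their direction and their side of an adjusted p of 0.05, 14 lost a call, 30 gained one and 14 changed sign. Against 0 members higher and 1 lower, there were 0 lower with no filter, beside 2.07 percent of all genes called. A minimum FPKM of 5 left CLDN1 untested and gave 0 lower, beside 7.13 percent. Median-ratio scaling gave 4 higher (1177 of all 10726 tested genes called, against 641) and quantile normalization 1 higher. With the GC trend removed, 1 was higher and 2 lower. Leaving out 1 library at a time moved the log2 fold change of CLDN1 between -1.46 and -1.14. Without ZCCHC4 KO1 replicate 2, CLDN7 was called higher and CLDN1, DSP and PKP4 lower, beside 14.9 percent of all tested genes. The lone library left in a group is assumed to vary like the others. Under the stricter criterion 1 member, CLDN1, was called with median-ratio scaling. The share of all tested genes called under that criterion was not counted for this setting. The median log2 fold change of 0.11 was -0.0001 with no filter, where all 58 members entered, -0.11 with a minimum FPKM of 5, and -0.0013 to 0.19 without a library, lowest without ZCCHC4 KO1 replicate 2. Partner genes called went from 4 to 2 with no filter, 8 with median-ratio scaling, 7 with the GC trend removed and 2 to 8 without a library (2 without WT replicate 1 or 2, 8 without ZCCHC4 KO1 replicate 2). Regulator genes called went from 4 to 2 with a minimum FPKM of 5, to 7 with median-ratio scaling and to 3 to 5 without a library. Quantile normalization raised the share of all tested genes called from 5.98 percent to 11.1 percent with quantiles, and GC removal raised it to 19.9 percent.

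ZCCHC4 had a log2 fold change of -1.92 with a pseudocount of 0.1 (adjusted p = 0.0551 from limma) and -1.48 with no filter (adjusted p = 0.115), both without a call, and -1.81 to -1.15 without a library, with the call lost without ZCCHC4 KO1 replicate 1 (-1.15, adjusted p = 0.0514). Signs changed for CLDN15 (0.0052 with median ratios, 0.0545 with quantiles), PKP2 (0.0151 with quantiles, 0.0081 with the GC trend removed) and JUP (-0.0751 with the GC trend removed). Without a library, CLDN15 ranged from -0.24 to 0.14, DSG2 from -0.55 to 0.25, JUP from -0.12 to 0.26, PKP2 from -0.45 to 0.25, and TJP1 from -0.23 to 0.55. What caused these changes was not tested.

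The libraries share only replicate numbers, and the differences between replicates of WT and of ZCCHC4 KO1 correlated across genes with Pearson's r = -0.79. With the replicate block the members called stayed at 0 higher and 1 lower, CLDN1, while PRKCZ (adjusted p = 0.216 from limma) and TWIST1 (0.225) lost their calls. With the crossed replicate block, chosen after seeing the data, 9 members were higher and 7 lower, with 24 partners and 14 regulators called. Of all tested genes, 49.4 percent were called there at an adjusted p below 0.05. Under the stricter criterion 1 member was called, and the share of all tested genes was not counted.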
